A study of Homo sapiens with 12 samples.

Results

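NEAT1, MALAT1 and the genes of 4 core paraspeckle proteins (SFPQ, NONO, PSPC1 and RBM14) were followed through 12 libraries of polyadenylated RNA. The cells were HEK293 Flp-In, a kidney-derived human line in which a transgene can be placed at a defined genomic site. The 6 genes were taken by name from the deposited table of 32010 genes, and all 6 passed the filter on low counts that left 19424 genes. The set was chosen by the NEAT1 counts of TAF5-depleted and control cells, where its rise was among the largest, so that comparison is given below as a description only. The other 5 genes were added as its neighbour and its protein partners.

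The study asked whether exon 8 of TAF5, a subunit of the promoter-binding complex TFIID, matters for gene expression. Each of 4 groups had 3 libraries. ΔE8 cells received an siRNA against TAF5 and then expressed an siRNA-resistant TAF5 without exon 8, and FL cells received the same siRNA and expressed the full-length protein. siTAF5 cells received the TAF5 siRNA without a rescue, and siNT cells a non-targeting siRNA. Transgenes were induced with doxycycline for 48 h, starting 24 h after the siRNA. The treatment field lists siRNA and doxycycline for every sample, controls included. A lone TAF5 siRNA was used, and the line in which siTAF5 and siNT cells were grown is not stated. Doses of doxycycline differed between ΔE8 and FL and the TAF5 RNA level did too, so the effect of exon 8, of the dose and of the transgene's level cannot be told apart in ΔE8 against FL. Nothing states that replicates were separate cultures, so p-values measure only the spread between these samples.

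Library totals were 41.8 to 62.5 M estimated counts. TAF5 itself stood at 88.0 ± 0.757 CPM in ΔE8 cells and 105 ± 2.44 CPM in FL cells, and at 6.72 ± 0.612 CPM in siTAF5 cells and 40.0 ± 0.698 CPM in siNT cells (mean ± SD, n = 3, as below). CPM are counts scaled to a common library size. Of the kidney markers, PAX2 ran from 4.99 to 8.57 CPM, WT1 from 6.96 to 10.5 and GATA3 from 22.0 to 27.1 over the 12 libraries, while PAX8 stayed at or under 0.0949 CPM. The epithelial keratin KRT18 ran from 102 to 128 CPM, and the epithelial cadherin CDH1 from 3.53 to 12.4 CPM. Of the markers of other cell types, PTPRC (blood), PECAM1 (endothelial) and KRT5 (basal) were at or near 0. The collagen genes COL1A1 and COL3A1 were not, at 6.63 to 13.9 and 1.14 to 3.47 CPM. COL1A1 thus overlapped PAX2 and WT1 in level.

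NEAT1 is a long noncoding RNA that stays in the nucleus, where its long isoform is the scaffold of paraspeckles. SFPQ, NONO and PSPC1 form a family of dimerising RNA-binding proteins that coat this RNA, and RBM14 helps to hold the assembled body together. MALAT1, made from the next long noncoding gene on the chromosome, gathers instead in nuclear speckles, bodies rich in splicing factors. A short NEAT1 isoform is polyadenylated, whereas the long isoform and mature MALAT1 end without a poly(A) tail, after cleavage of a tRNA-like structure by RNase P, and are protected by a triple helix of U-rich stretches with an A-rich tract. The libraries were selected for poly(A), and counts per gene do not separate isoforms.

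The ends of the transcripts are shown because they bear on capture by poly(A) selection, which was not measured here. They are from GENCODE release 29 transcripts on GRCh38, 5′ to 3′, with 3 motifs in capitals. These are the U-rich TTTNTTTT and TTTNNTTTT, where N is any base and which can overlap, and the A-rich AAAAAGCAAAA, the last 11 bases of the longest NEAT1 transcript. The NEAT1 stretch, chr11:65445431-65445540 (+), is the last 110 bases of that unspliced transcript. The MALAT1 stretch, chr11:65506007-65506116 (+), runs up to the second of 2 matches of the A-rich motif in the longest MALAT1 transcript. It is not the end of that annotated transcript, which runs on to 65506469.
NEAT1 3′ end: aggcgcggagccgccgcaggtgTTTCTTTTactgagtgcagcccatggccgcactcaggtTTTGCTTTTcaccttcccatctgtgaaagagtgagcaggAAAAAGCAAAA
MALAT1 3′ end: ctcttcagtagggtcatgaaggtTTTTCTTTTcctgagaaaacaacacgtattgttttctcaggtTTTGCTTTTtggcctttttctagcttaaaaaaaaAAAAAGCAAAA
The longest unbroken run of A was 5 bases in the NEAT1 stretch and 13 bases in the MALAT1 stretch. On the transcript strand, AAAAAGCAAAA was in the last 110 bases of 0.0491% of 201525 annotated transcripts of at least that length, TTTNTTTT in 5.91% and TTTNNTTTT in 5.76%. These letters are a description of the reference, not of the RNA in these cells.

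The short NEAT1 isoform ends far upstream of that stretch. The 70 bases below, chr11:65426473-65426542 (+), hold its annotated ends at 65426499 and 65426513, and its other annotated ends lie upstream. They also hold the letters of a polyadenylation signal, AATAAA, in capitals, from position 3706 of the longest transcript. Use of these letters as a signal was not measured. Another AATAAA, not shown, begins at position 4100. AATAAA is a common motif, which was in the last 110 bases of 27.5% of transcripts.
NEAT1 short isoform end: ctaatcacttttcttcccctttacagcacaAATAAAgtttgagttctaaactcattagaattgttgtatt
Of the annotated isoforms, a spliced one of 3441 bases in 2 exons ends before the signal shown, as do others that end at 65426405 and 65426499. Another ends just after that signal at 65426513, and the longest has 22743 bases in 1 exon.

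NEAT1 (ENSG00000245532, chr11:65422774-65445540, +, hg38) stood at 109, 132 and 129.9 CPM in the 3 ΔE8 libraries, against 52.7, 57.9 and 59.2 CPM in the 3 FL libraries. All ΔE8 libraries lay above all FL libraries. The difference was 2.19-fold (log2 1.13, SE 0.066, 95% interval 0.99 to 1.27, edgeR adjusted p = 1.08e-10), larger than the spread between replicates. By log2 difference NEAT1 ranked 134 from the top of 19424 genes, and 12 from the top of the 12288 genes with a mean of at least 4 CPM. This comparison shares no library with the one that chose NEAT1. Levels are relative to the bulk of RNA in each library, so fewer cells that express a gene and less of its RNA per cell cannot be told apart.

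In the choosing comparison, siTAF5 libraries had 128, 135 and 141 CPM of NEAT1, and siNT libraries 44.3, 52.5 and 51.5 CPM. NEAT1 was thus 2.72-fold higher in siTAF5 cells (log2 1.44, SE 0.065), which ranked 6 from the top of the 12288 genes with a mean of at least 4 CPM. These values describe the choice and are not a test. With FL the level was 2.39-fold lower than in siTAF5 cells (log2 -1.26, SE 0.066) and 1.14-fold higher than in siNT cells (log2 0.19, SE 0.069). With ΔE8 the log2 difference from siTAF5 cells was -0.12 (SE 0.061, 95% interval -0.25 to 0.0031), and the level was 2.49-fold that of siNT cells (log2 1.32, SE 0.065). The difference of ΔE8 from siTAF5 shrank to -0.029 without ΔE8 replicate 1 and to -0.082 without siTAF5 replicate 3, and that of FL from siNT to 0.12 without siNT replicate 1. No p is given for these 4 comparisons, which share the siTAF5 or siNT libraries with the choice. From high to low the groups ran siTAF5, ΔE8, FL and siNT, at 135 ± 6.57, 124 ± 12.6, 56.6 ± 3.44 and 49.4 ± 4.45 CPM. The siTAF5 and ΔE8 libraries overlapped; the lowest FL library, at 52.7 CPM, lay barely above the highest siNT library, at 52.5 CPM.

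**Figure D1:**
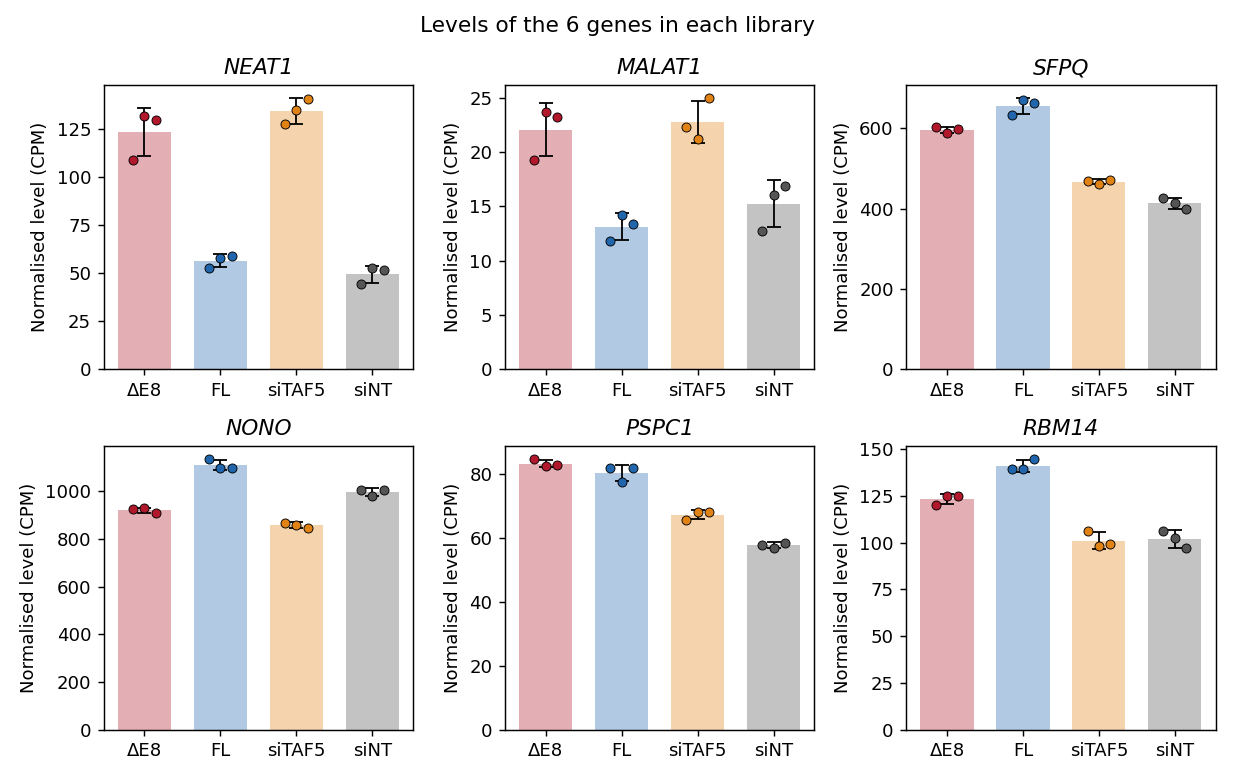
Normalised level in CPM of each of the 6 genes, by group; bars are means, whiskers the SD over 3 libraries, and points the libraries. NEAT1 stands at 109 to 132 CPM in ΔE8 and 52.7 to 59.2 CPM in FL libraries, and MALAT1 at 19.3 to 23.7 and 11.8 to 14.2 CPM. Each panel has its own CPM axis from 0.

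MALAT1 (ENSG00000251562, chr11:65497688-65506516, +) starts 52.1 kb past the end of NEAT1 on the same strand. It had 19.3, 23.7 and 23.3 CPM in ΔE8 libraries, against 11.8, 14.2 and 13.4 CPM in FL libraries. The groups did not overlap. MALAT1 was 1.69-fold higher in ΔE8 cells (log2 0.76, SE 0.096, 95% interval 0.56 to 0.96, edgeR adjusted p = 3.57e-06), a rank of 35 from the top of the 12288 genes with a mean of at least 4 CPM.

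siTAF5 libraries had 22.3, 21.2 and 25.0 CPM of MALAT1, and siNT libraries 12.8, 16.0 and 16.9 CPM. The log2 difference between them was 0.58 (SE 0.091, given without a test). MALAT1 was 1.75-fold lower in FL than in siTAF5 cells (log2 -0.81, SE 0.096, edgeR adjusted p = 6.56e-07), and 1.44-fold higher in ΔE8 than in siNT cells (log2 0.53, SE 0.092, edgeR adjusted p = 4.49e-05). ΔE8 against siTAF5 did not pass the threshold of 0.05 (log2 -0.052, 95% interval -0.24 to 0.13, edgeR adjusted p = 0.681), and its sign turned without ΔE8 replicate 1 (log2 0.052) or without siTAF5 replicate 3 (log2 0.028). FL against siNT did not pass either (log2 -0.23, 95% interval -0.44 to -0.023, edgeR adjusted p = 0.0559). That last call depended on the setting, since it passed in a fit of the FL and siNT libraries alone (edgeR adjusted p = 0.0346) and when FL replicate 2 was left out, among others. The order of group means was siTAF5, ΔE8, siNT and FL, at 22.8 ± 1.94, 22.1 ± 2.40, 15.2 ± 2.18 and 13.1 ± 1.23 CPM, with overlap between siTAF5 and ΔE8 and between siNT and FL.

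MALAT1 has 2 promoter windows in the RefSeq table, and 4 of the 6 genes have any. NEAT1 and SFPQ have none, so MALAT1 cannot be compared with NEAT1 here. The window below, chr11:65498795-65499094 (+, GRCh38.p14), runs from 250 bases before to 50 after a start; it is shown because it was the only window of the 4 genes with the TATA-box letters TATAAA on the gene's strand, given in capitals, 30 bases before the start. Those letters were on the gene's strand in 7.33% of 35116 windows and on either strand in 11.5%, and 2.43% held them between 45 and 11 bases before the start. The window shown lies wholly past the annotated start of MALAT1 at 65497688. The other MALAT1 window, chr11:65497488-65497787 (+), spans that annotated start, has 73.7% GC and holds no TATAAA on the gene's strand.
MALAT1 promoter window: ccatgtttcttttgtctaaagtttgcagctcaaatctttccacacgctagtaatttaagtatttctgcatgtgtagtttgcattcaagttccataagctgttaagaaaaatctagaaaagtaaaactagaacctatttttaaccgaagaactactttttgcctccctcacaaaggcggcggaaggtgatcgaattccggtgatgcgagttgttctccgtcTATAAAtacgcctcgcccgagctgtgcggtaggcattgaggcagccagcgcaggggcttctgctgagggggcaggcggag

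The log2 difference was larger for NEAT1 than for MALAT1 in ΔE8 against FL, and the ratio of the pair was compared library by library. The log2 ratio of NEAT1 to MALAT1 CPM, in which gene length cancels once groups are compared, was 2.50, 2.48 and 2.48 in ΔE8 libraries and 2.16, 2.03 and 2.15 in FL libraries. All 3 ΔE8 values were above all 3 FL values, and the means differed by 0.38 (exact permutation test, two-sided p = 0.1, the smallest that 3 against 3 allows). The log2 ratio was 2.52, 2.67 and 2.50 in siTAF5 libraries and 1.80, 1.71 and 1.61 in siNT libraries. NEAT1 was chosen for its rise in siTAF5 over siNT cells, so these ratios are a description only. In 3 of the 4 groups the library with the lowest NEAT1 level also had the lowest MALAT1 level.

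**Figure D2:**
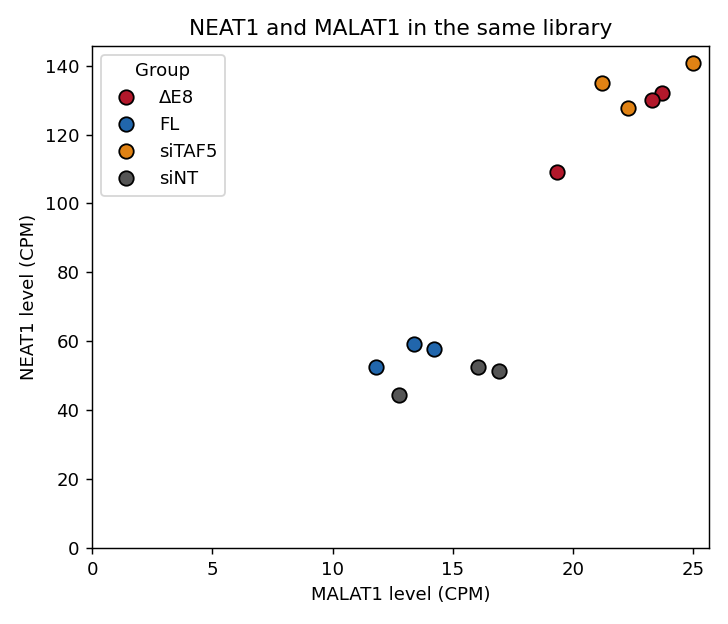
NEAT1 level against MALAT1 level in CPM, a point for each of the 12 libraries, coloured by group. ΔE8 and siTAF5 libraries lie together at 109 to 141 CPM of NEAT1, and FL and siNT libraries together at 44.3 to 59.2 CPM.

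The genes around the pair had smaller differences in ΔE8 against FL. Of 22 genes whose span reaches within 150 kb of NEAT1 or MALAT1, 18 were tested. In ΔE8 against FL, 2 of the 18 were higher and 5 lower, with a median log2 difference of -0.074 and a range from -0.57 to 0.23, beside 17.3% higher and 19.7% lower of all genes and their median of -0.0089. POLA2, a subunit of DNA polymerase alpha, was higher (log2 0.23), as was PCNX3 (log2 0.11). The lower ones included the mitochondrial carrier gene SLC25A45 (log2 -0.57), EHBP1L1 (log2 -0.56), the Rap GTPase regulator SIPA1 (log2 -0.37) and a protein-coding gene without a name (log2 -0.36).

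The tested gene with the nearest start upstream was FRMD8, 36.2 kb before NEAT1. FRMD8 had 15.6 CPM in ΔE8 cells and 14.8 CPM in FL cells and did not pass (log2 0.088, SE 0.055, edgeR adjusted p = 0.226). RELA, the p65 subunit of NF-kappa-B, had a log2 difference of -0.051 (SE 0.028, edgeR adjusted p = 0.169). In siTAF5 against siNT, 3 of the 18 genes were higher and 6 lower, beside 24.7% higher and 25.0% lower of all genes. The 18 had a median of -0.012 and a range from -0.96 to 0.48. FRMD8 was among the higher ones (log2 0.18, edgeR adjusted p = 0.00959). It was also higher than in siNT cells in FL (log2 0.19, edgeR adjusted p = 0.00669) and ΔE8 cells (log2 0.28, edgeR adjusted p = 0.000161). Against siTAF5 cells it did not pass in FL (log2 0.0091) or ΔE8 cells (log2 0.097).

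**Figure D3:**
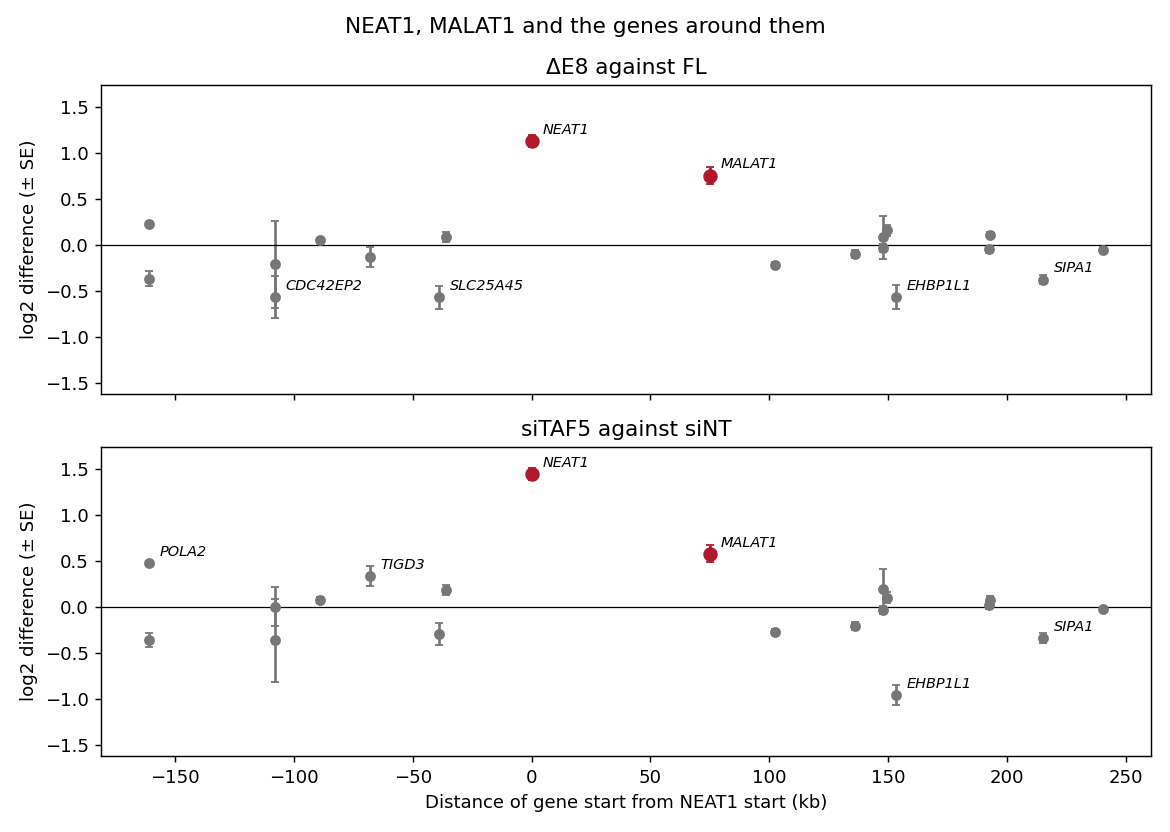
log2 difference with its SE for NEAT1, MALAT1 (red) and 18 tested genes around them (grey) against the distance of the gene start from the NEAT1 start in kb, for ΔE8 against FL above and siTAF5 against siNT below. In ΔE8 against FL NEAT1 and MALAT1 stand at 1.13 and 0.76 and the others between -0.57 and 0.23.

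In ΔE8 against FL, 5 of the 6 genes passed, 2 higher (the noncoding RNAs) and 3 lower (SFPQ, NONO and RBM14); over all tested genes 37.0% passed, 17.3% higher and 19.7% lower. With library totals the split of all calls turned, to 4072 genes higher and 3184 lower in place of 3359 and 3819. The median size of the log2 difference among all genes that passed was 0.220, and 137 genes were at least 2-fold higher and 93 at least 2-fold lower.

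NONO (ENSG00000147140, chrX:71254814-71301522, +), an abundant partner of SFPQ that is essential for paraspeckles, had 924, 929 and 907 CPM in ΔE8 libraries, against 1135, 1097 and 1099 CPM in FL libraries. The groups were well apart. NONO was 1.21-fold lower in ΔE8 cells (log2 -0.27, SE 0.021, edgeR adjusted p = 5.80e-09). siTAF5 libraries had 869, 861 and 845 CPM, against 1007, 979.9 and 1006 CPM in siNT libraries, a log2 difference of -0.22 (SE 0.021, given without a test). From high to low the groups ran FL, siNT, ΔE8 and siTAF5, and no neighbours in that order overlapped. NONO was higher in FL than in siTAF5 cells (log2 0.37, edgeR adjusted p = 2.72e-11) and in FL than in siNT cells (log2 0.15, edgeR adjusted p = 3.41e-06), and lower in ΔE8 than in siNT cells (log2 -0.12, edgeR adjusted p = 6.60e-05). ΔE8 stood slightly above siTAF5 (log2 0.10, edgeR adjusted p = 0.000781).

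SFPQ (ENSG00000116560, chr1:35176378-35193446, −), the other essential partner, had 603, 589 and 598 CPM in ΔE8 libraries, against 633, 670.2 and 662 CPM in FL libraries. The groups did not overlap, and SFPQ was 1.10-fold lower in ΔE8 cells (log2 -0.14, SE 0.026, edgeR adjusted p = 0.000341). siTAF5 libraries had 469, 460.4 and 471 CPM, and siNT libraries 427, 414 and 399 CPM, a log2 difference of 0.18 (SE 0.026, given without a test). Both rescued groups stood above both groups without a rescue. SFPQ was 1.40-fold higher in FL than in siTAF5 cells (log2 0.49, edgeR adjusted p = 1.27e-11) and 1.59-fold higher in FL than in siNT cells (log2 0.66, edgeR adjusted p = 4.40e-13). In ΔE8 cells it was 1.28-fold higher than in siTAF5 cells (log2 0.35, edgeR adjusted p = 6.84e-09) and 1.44-fold higher than in siNT cells (log2 0.53, edgeR adjusted p = 1.28e-12).

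PSPC1 (ENSG00000121390, chr13:19674752-19783019, −), the third of the family, had 84.5, 82.3 and 82.7 CPM in ΔE8 libraries, against 81.7, 77.3 and 81.6 CPM in FL libraries. It did not pass in ΔE8 against FL (log2 0.051, SE 0.029, 95% interval -0.0091 to 0.11, edgeR adjusted p = 0.179). The groups did not overlap here either, with the lowest ΔE8 library at 82.3 CPM and the highest FL library at 81.7 CPM. siTAF5 libraries had 65.5, 68.0 and 68.1 CPM, and siNT libraries 57.7, 56.8 and 58.4 CPM, a log2 difference of 0.22 (SE 0.030, given without a test). As for SFPQ, the rescued groups were the higher ones: PSPC1 was 1.19-fold higher in FL than in siTAF5 cells (log2 0.26, edgeR adjusted p = 4.44e-07) and 1.24-fold higher in ΔE8 than in siTAF5 cells (log2 0.31, edgeR adjusted p = 1.11e-07). Against siNT cells the log2 differences were 0.48 in FL cells (edgeR adjusted p = 9.72e-11) and 0.53 in ΔE8 cells (edgeR adjusted p = 5.85e-12).

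RBM14 (ENSG00000239306, chr11:66616626-66629934, +), a coactivator with a prion-like domain, had 120.1, 125 and 125 CPM in ΔE8 libraries, against 139, 139 and 145 CPM in FL libraries. The groups did not overlap, and RBM14 was 1.14-fold lower in ΔE8 cells (log2 -0.19, SE 0.034, edgeR adjusted p = 0.000142). siTAF5 libraries had 106, 98.1 and 99.2 CPM, and siNT libraries 106, 103 and 97.0 CPM, and these groups overlapped (log2 -0.012, SE 0.035, given without a test; the sign turned, to 0.021 with libraries scaled by their totals and to 0.017 without siNT replicate 1). RBM14 was 1.40-fold higher in FL than in siTAF5 cells (log2 0.48, edgeR adjusted p = 6.27e-10) and 1.22-fold higher in ΔE8 than in siTAF5 cells (log2 0.29, edgeR adjusted p = 1.78e-06). It was also higher in FL than in siNT cells (log2 0.47, edgeR adjusted p = 8.66e-10) and in ΔE8 than in siNT cells (log2 0.28, edgeR adjusted p = 6.64e-07).

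Reads could be shared with related loci for some of these genes. The readthrough gene RBM14-RBM4, which overlaps RBM14, had 3.03 ± 0.464 CPM in ΔE8 cells, 3.14 ± 0.298 in FL, 2.06 ± 0.0834 in siTAF5 and 1.98 ± 0.224 in siNT cells. The pseudogene NONOP2 averaged 0.211 to 0.305 CPM over the groups, and the antisense gene PSPC1-AS2 had at most 0.106 CPM in any library. The rule for assigning such reads is not given in these sources.

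Outside ΔE8 against FL, the 5 genes other than NEAT1 were counted in the comparisons that did not choose the set. In FL against siTAF5 4 of the 5 were higher and 1 (MALAT1) lower, beside 24.4% higher and 24.4% lower of all genes. With library totals in place of the trimmed-mean scaling, the split over all genes in that comparison was 3748 higher and 5788 lower in place of 4745 and 4732, and the 5 calls were the same in number and direction. In ΔE8 against siTAF5 4 were higher and 0 lower, beside 20.0% and 20.6% of all genes. In FL against siNT 4 were higher and 0 lower, beside 27.8% and 26.8%, and in ΔE8 against siNT 4 were higher and 1 (NONO) lower, beside 30.8% and 31.4%.

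**Figure D4:**
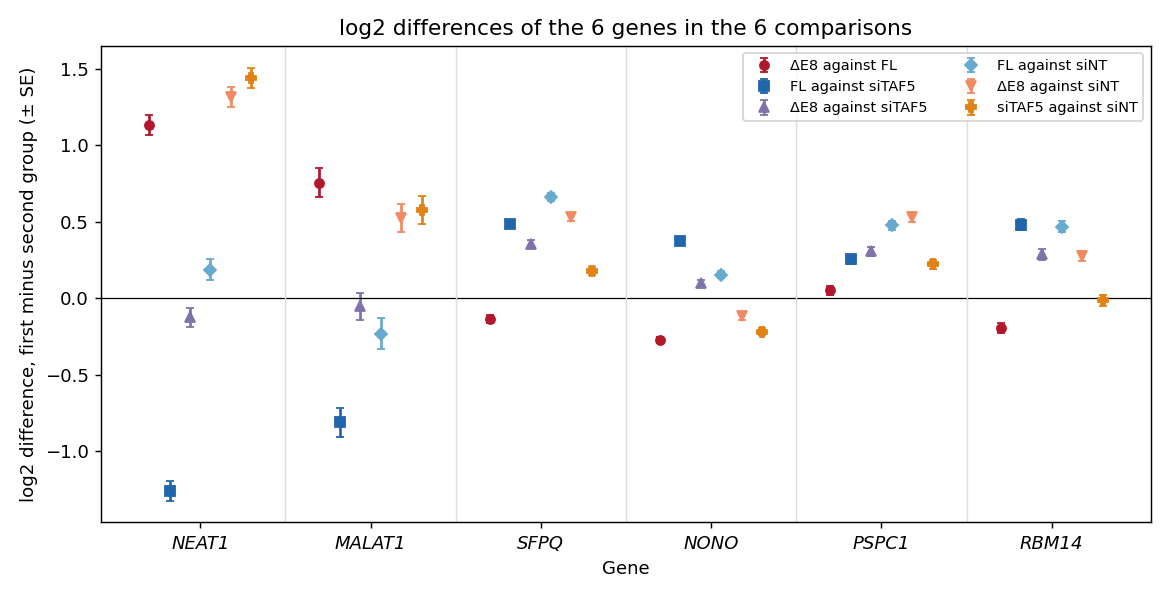
log2 difference, first minus second group, with its SE, for the 6 genes in the 6 comparisons. NEAT1 and MALAT1 are above 0 in ΔE8 against FL (1.13 and 0.76) and below 0 in FL against siTAF5 (-1.26 and -0.81), and SFPQ, NONO and RBM14 have the opposite signs in both.

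The wider set of paraspeckle proteins was read from a list of 47 genes, all tested, written from general knowledge. In ΔE8 against FL 4 of the 47 were higher (8.51%) and 27 lower (57.4%), with a median log2 difference of -0.096, beside 17.3% higher, 19.7% lower and a median of -0.0089 over all genes. With libraries scaled by their totals the split was 7 higher and 22 lower. The largest falls among genes above 1 CPM were in RBM3, a cold-inducible RNA-binding protein, at 91.3 ± 0.172 CPM in ΔE8 and 151 ± 3.71 CPM in FL cells (log2 -0.72, SE 0.032, edgeR adjusted p = 2.91e-12), and in the splicing regulator HNRNPA1, at 1646 ± 50.8 and 2298 ± 73.4 CPM (log2 -0.48, SE 0.026, edgeR adjusted p = 3.99e-11). CELF6 also passed as lower, but from under 1 CPM, at 0.0575 CPM in ΔE8 and 0.298 CPM in FL cells.

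The 4 that were higher, named after their values were seen, were ZC3H6 (log2 0.46), CIRBP, the other cold-inducible protein (log2 0.21), the RNA helicase DDX3X (log2 0.15) and UBAP2L (log2 0.076). RBM3 and CIRBP thus moved in opposite directions. Several further genes were picked after their values were seen, for their roles. HNRNPK, which favours the long NEAT1 isoform by blocking the early poly(A) site, had 951 ± 13.9 CPM in ΔE8 and 1011 ± 18.4 CPM in FL cells (log2 -0.088, SE 0.021, edgeR adjusted p = 0.00211). CPSF6 and NUDT21, the cleavage factor subunits that favour that site, had log2 differences of 0.0057 (edgeR adjusted p = 0.898) and -0.074 (edgeR adjusted p = 0.0333). DAZAP1 (log2 -0.28) and HNRNPH3 (log2 -0.19) were lower, and the remodeller ATPase SMARCA4 did not pass (log2 0.0080, edgeR adjusted p = 0.838).

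In FL against siTAF5 29 of the 47 were higher and 6 lower, with a median of 0.18 beside -0.0052 over all genes. Of all genes 24.4% were higher and 24.4% lower there. HNRNPM had 589 ± 15.9 CPM in FL and 391 ± 6.06 CPM in siTAF5 cells (log2 0.59, SE 0.025, edgeR adjusted p = 5.34e-13) and RBM3 151 ± 3.71 and 89.0 ± 3.84 CPM (log2 0.76). ZC3H6 was lower, at 7.49 ± 0.680 CPM in FL and 13.3 ± 0.866 CPM in siTAF5 cells (log2 -0.82). In ΔE8 against siTAF5 27 were higher and 6 lower (median 0.094), with 18 and 9 under upper-quartile scaling, beside 20.0% and 20.6% of all genes. In FL against siNT 34 were higher and 9 lower (median 0.18), beside 27.8% and 26.8% of all genes. In ΔE8 against siNT 20 were higher (42.6%) and 16 lower (34%), beside 30.8% and 31.4% of all genes. The median of the list there was 0.033, or -0.0089 under upper-quartile scaling. In siTAF5 against siNT 11 were higher and 18 lower (median -0.018), beside 24.7% and 25.0% of all genes. With library totals the split was 18 higher and 14 lower and the median 0.016, so that no direction of the list is given there.

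**Figure D5:**
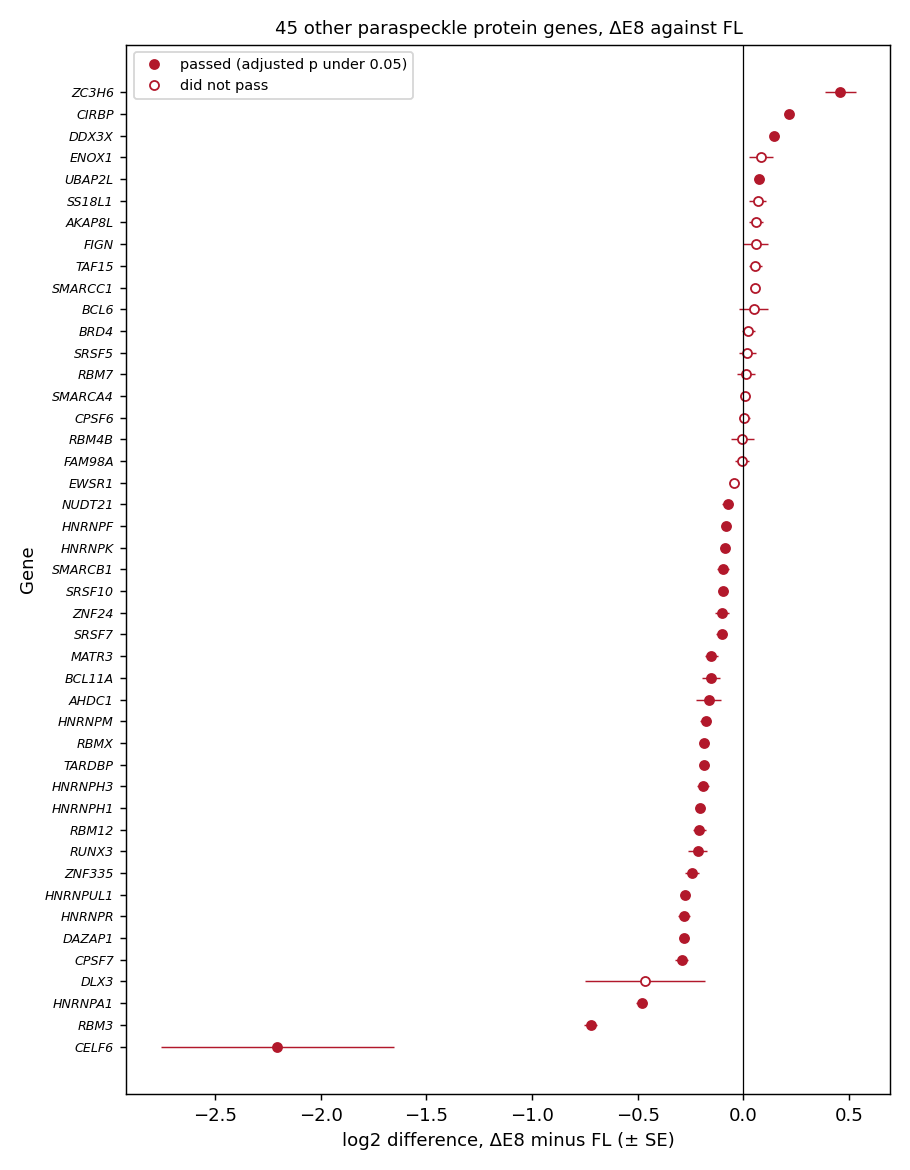
log2 difference, ΔE8 minus FL, with its SE for 45 of the 47 other paraspeckle protein genes, ordered by value; filled points passed the adjusted p threshold of 0.05. Filled points number 25 to the left of 0 and 4 to its right.

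Genes of nuclear speckles and of the processing and decay of RNA were read from 3 further lists. Of 20 nuclear speckle proteins, the residents of the body in which MALAT1 gathers, 1 was higher and 9 lower in ΔE8 against FL (median -0.054), beside 17.3% and 19.7% of all genes and their median of -0.0089. The lower ones were led by PNN (log2 -0.29) and the splicing factor SRSF1 (log2 -0.24), followed by the export adaptor ALYREF (log2 -0.21), and the kinase DYRK1A was the higher one (log2 0.17). In both FL and ΔE8 against siTAF5, 15 of the 20 were higher and 0 lower, with medians of 0.21 and 0.15. Over all genes the shares were 24.4% higher and 24.4% lower with FL (median -0.0052), and 20.0% and 20.6% with ΔE8 (median -0.011). The comparison of siTAF5 with siNT gave 6 higher and 7 lower (median -0.032), or 6 and 5 with library totals (median 0.0018), beside 24.7% and 25.0% of all genes.

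Of 13 genes of RNase P, RNase Z and CCA addition, which cut and trim tRNA-like ends, 2 were higher and 3 lower in ΔE8 against FL (median -0.018, or 0.0090 with library totals), beside 17.3% and 19.7% of all genes. They were RPP25L (log2 0.24) and POP1 (log2 0.12), and RPP40 (log2 -0.37), POP4 (log2 -0.20) and the RNase Z enzyme ELAC2 (log2 -0.073, named after its value was seen). Against siTAF5 cells 7 were higher and 1 lower in FL cells, and 9 and 1 in ΔE8 cells (5 and 1 with library totals or upper-quartile scaling), beside 24.4% and 24.4% of all genes with FL and 20.0% and 20.6% with ΔE8. In siTAF5 against siNT 4 were higher and 2 lower, or 5 and 1 with library totals, beside 24.7% and 25.0% of all genes.

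Of 20 genes of the nuclear exosome and its adaptors, which degrade unprotected nuclear RNA, 5 were higher and 4 lower in ΔE8 against FL (median -0.014), or 4 and 5 under upper-quartile scaling. Of all genes 17.3% were higher and 19.7% lower. EXOSC9 (log2 -0.34), EXOSC6 (log2 -0.31) and C1D (log2 -0.26) were lower, and ZFC3H1, the scaffold of the poly(A) tail exosome targeting connection, was higher, at 69.8 CPM in ΔE8 and 56.5 CPM in FL cells (log2 0.31, SE 0.037, edgeR adjusted p = 1.93e-06). RBM7 is on this list and on the paraspeckle list. In FL against siTAF5 15 were higher and 4 lower, and in ΔE8 against siTAF5 13 and 0 (13 and 2 with library totals), beside 24.4% and 24.4% of all genes with FL and 20.0% and 20.6% with ΔE8. Between siTAF5 and siNT cells, 10 were higher in siTAF5 and 2 lower, beside 24.7% and 25.0% of all genes.

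Other genes followed NEAT1 closely over the libraries. Among 12270 genes with a mean log2 CPM of at least 2, the highest Pearson correlations of log2 CPM with NEAT1 over the 12 libraries were those of FOCAD (0.993), EMC1 (0.992), CSRNP2 (0.991), DUSP19 (0.989) and SPPL2B (0.989). Their swings were smaller than that of NEAT1: SPPL2B, an intramembrane protease, stood at 63.5 ± 3.73 CPM in ΔE8, 42.1 ± 0.770 in FL, 65.7 ± 2.01 in siTAF5 and 41.5 ± 0.394 in siNT cells. MALAT1 correlated with NEAT1 at 0.921, which placed it 386th. The genes most like MALAT1 were UHRF2 (0.969), MTFR1L (0.960), BSDC1 (0.959), RETREG3 (0.946) and the pseudogene SSR4P1 (0.945). Correlations with NEAT1 were 0.360 for PSPC1, 0.095 for SFPQ, -0.197 for RBM14 and -0.846 for NONO. These describe 12 points in 4 groups that share a scaling, and carry no test.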

How the data were processed

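Polyadenylated RNA of 12 libraries was measured, 3 in each of 4 groups taken from the sample titles. The table deposited by the authors holds expected counts per gene, as 38.7% of values were over 0.01 from a whole number. They were taken as not normalized because the deposited table is called raw counts and library totals differ. Per the submitters' processing notes, the build was hg38 and the tools were STAR 2.7.0f, cutadapt 1.18, DESeq2 (version not given) and Partek 10.0.23.0531, listed with no roles or order. Annotation and strand setting of the counting are not stated in these sources. Per the labels' protocols, the library kit was stranded.

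The design was written for counts, so estimated counts were rounded, and library totals moved by at most 91.3 counts. The software was edgeR 4.0.16 and limma 3.58.1 in R 4.3.3, with DESeq2 1.42.0 for an alternative. After filterByExpr (minimum count 10), libraries were given TMM factors (trimmed mean of M values) and fitted in 1 edgeR quasi-likelihood model over the 12 libraries with no replicate block. Tests were two-sided with Benjamini-Hochberg adjustment over 19424 genes in each of 6 comparisons and a threshold of 0.05. The scripts were tested on simulated data. Between replicates, chi-square divided by its degrees of freedom was 2.61 to 5.16, above counting noise in every pair, so counting intervals were not used. The common biological coefficient of variation in the fit was 2.82%. Each library was taken as a replicate, but neither value can show that libraries came from separate cultures. Depth was 41.8 to 62.5 M counts.

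The 6 genes and the lists (other paraspeckle proteins, nuclear speckle proteins, RNase P, RNase Z and CCA addition, nuclear exosome, nuclear-retained noncoding RNAs) were chosen with earlier results of these data known. Up to 4 genes that passed with the largest log2 difference were named per list and comparison, with every tested gene within 150 kb of NEAT1 or MALAT1 and the 5 genes most like each. Some genes that the rule names are not reported here. Positions come from the deposited table and sequences from GENCODE release 29 (GRCh38) and RefSeq. The alternatives were other scalings, no filter, DESeq2, a replicate block, the libraries of 2 groups alone and leaving out each replicate.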

Additional observations from a re-analysis of the deposited data

Results flagged for a closer look

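In all, 5 of the 6 genes differed between the ΔE8 and the FL rescue by the test of that difference, beside 37.0% of all 19424 genes tested. The log2 differences were 1.13 for NEAT1 (edgeR adjusted p = 1.08e-10) and 0.76 for MALAT1 (edgeR adjusted p = 3.57e-06). They were -0.14 for SFPQ (edgeR adjusted p = 0.000341), -0.27 for NONO (edgeR adjusted p = 5.80e-09) and -0.19 for RBM14 (edgeR adjusted p = 0.000142). The ΔE8 and FL libraries did not overlap for these 5 genes. Nor did they for PSPC1, which did not pass, so the lack of overlap does not set the 5 apart. The share of all genes without overlap was not counted. The doxycycline dose and the TAF5 RNA level also differed between these groups, at 88.0 CPM of TAF5 in ΔE8 and 105 CPM in FL cells, and their part in the result was not tested.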

How the results depend on the processing

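Under every alternative run, the NEAT1 differences kept their direction, and the counts called among the 6 genes and the 47 paraspeckle proteins stayed within 1.5 times their value. The split of the 47 between higher and lower turned in siTAF5 against siNT with library totals (18 higher and 14 lower) and in ΔE8 against siNT under upper-quartile scaling (17 and 20). NEAT1 in ΔE8 against FL ranged from 1.08 to 1.23 (log2) when each replicate was left out, and MALAT1 from 0.67 to 0.86. In ΔE8 against siTAF5 the ranges were -0.17 to -0.029 for NEAT1 and -0.10 to 0.052 for MALAT1. With a replicate block NEAT1 was 1.13 and MALAT1 0.75. Replicate numbers were not taken as pairs: libraries with the same number correlated at -0.051 to 0.051 in their deviations from the group means, although 10 of 12 libraries correlated best with their own number, and the block moved the calls in ΔE8 against FL from 7178 to 7409 genes. MALAT1 in FL against siNT passed under upper-quartile scaling (edgeR adjusted p = 0.0340), without the filter (0.00260), with the block (0.0131), with 2 groups alone (0.0346) and in 6 of 12 omissions, namely of ΔE8 replicates 1 and 2, FL 2, siTAF5 2 and 3 and siNT 1 (edgeR adjusted p from 0.0037 to 0.28 over the 12). PSPC1 in ΔE8 against FL passed with library totals (log2 0.078, edgeR adjusted p = 0.0329). In siTAF5 against siNT, library totals gave -0.18 for NONO and 0.26 for PSPC1, and NONO was -0.24 without siTAF5 replicate 1. No scaling moved the median of all genes by more than 0.048 in size. Isoforms, total RNA per cell and effects of separate cultures are not visible in these counts.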

Other observations

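Other noncoding RNAs known to stay in the nucleus or to be abundant there, read from a list of 12 of which 10 were tested, went in both directions. In ΔE8 against FL 1 was higher and 1 lower, with a median log2 difference of -0.022 beside -0.0089 over all genes and 17.3% higher and 19.7% lower of all genes. The higher call was lost under upper-quartile scaling (0 higher and 1 lower), and the median was 0.0045 with library totals (2 higher and 1 lower). TUG1, a long noncoding RNA, had 189 CPM in ΔE8 and 177 CPM in FL cells (log2 0.098, SE 0.038, edgeR adjusted p = 0.0483), and CYTOR 12.3 and 14.0 CPM (log2 -0.19, SE 0.056, edgeR adjusted p = 0.0121). In siTAF5 against siNT 2 were higher, TUG1 (log2 0.52) and FTX (log2 0.37), and 2 lower, SNHG1 (log2 -0.18) and GAS5 (log2 -0.12). Of all genes 24.7% were higher and 25.0% lower there. FL against siTAF5 gave 3 higher and 1 lower, ΔE8 against siTAF5 2 and 1, FL against siNT 6 and 2, and ΔE8 against siNT 5 and 3 (3 and 3 under upper-quartile scaling), beside between 20.0% and 31.4% of all genes in either direction in these comparisons.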
